A study of Homo sapiens with 16 samples.

Results

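The clustered protocadherin genes are the 53 protein-coding genes of GENCODE release 44 whose symbol starts with PCDHA, PCDHB or PCDHG, out of 20033 protein-coding genes. The rule that lists them uses the symbol and no measured value, although the gene family was picked with earlier results of these data known. Of the members 15 belong to the alpha cluster, 16 to the beta cluster and 22 to the gamma cluster. On hg38 they span chr5:140786136-141512977, all on the plus strand, with the alpha genes first and the gamma genes last. CUT&RUN, in which an antibody-guided nuclease releases the DNA next to a histone mark, was performed in MCF-10A, a human breast epithelial line that is not transformed, with 3 biological replicates. Cells received 5 mM octanoic acid (OA, a medium-chain fatty acid) or vehicle (PBS) for 24 hours, and 3 OA and 3 vehicle libraries were made with each of an H3K4me3 and an H3K27me3 antibody. Untreated cells gave 2 control libraries with the H3K4me3 antibody and 2 with IgG, so the series holds 16 libraries. The line is a single cell line, and each library has a list of called peaks, so that a start without a peak is one where no enrichment was called, not one shown to lack the mark.

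Protocadherins are adhesion proteins of the cadherin superfamily, and those of the clusters are best known in neurons, where different combinations on the cell surface let a neuron tell its own branches from those of other neurons. In the alpha and gamma clusters, each variable first exon has its own promoter and is spliced to constant exons shared by the whole cluster, whereas each beta gene is encoded by a single large exon. Promoter choice among the alternate genes is known to depend on CTCF and cohesin, which loop a promoter to a distant enhancer, and DNA methylation of these promoters goes with silence. The last genes of the alpha and gamma clusters, the C-type genes PCDHAC1, PCDHAC2, PCDHGC3, PCDHGC4 and PCDHGC5, are regulated apart from the alternate genes. H3K4me3 marks the starts of active or poised genes, and H3K27me3 is laid down by the Polycomb complex at silenced genes.

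Most alternate protocadherin promoters carry a conserved sequence element with the core letters CGCT shortly before the start. The 4 letters CGCT were present on the gene strand in the 100 bases before the start of 48 of the 53 members (90.6%), against 36.1% of all protein-coding genes. On either strand the shares were 92.5% and 56.6%. The 28 bases around a CGCT, read from hg38 on the plus strand, are given for the 3 alternate alpha genes whose starts carried H3K4me3 in every vehicle and OA library and for related members, with CGCT in capitals. Where the window held more than 1 CGCT, as at PCDHA7, PCDHB14, PCDHGB4 and PCDHGB5, the one nearest to 55 bases before the start is shown.
PCDHA4: gccacatgatgtCGCTctttaccacaaa
PCDHA7: gccacatgatgtCGCTctttaccgcaaa
PCDHA6: gccgcatgatgtCGCTgtctaccatgaa
PCDHA8: gccacatgatgtCGCTgtctaccaagaa
PCDHA12: gtcacatgatgtCGCTctacactcagaa
PCDHB1: ggggagttgagtCGCTcaatgcaaattt
PCDHB12: gacgcgtggtggCGCTgcaggataatat
PCDHB13: gacgcgtggtggCGCTgcaggataagaa
PCDHB14: gacacatggtggCGCTacaggataagac
PCDHGB4: gactctgggcgcCGCTgttggccaaagt
PCDHGB5: gactctgggcgcCGCTgttggccaaagt

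The letters on either side of CGCT were shared by most members of the alpha and beta clusters and many of the gamma cluster. TGTCGCT, on either strand, lay in the 100 bases before the start of 12 of 15 alpha genes (80.0%) and of 0.624% of all protein-coding genes, GGTGGCGCT in 13 of 16 beta genes (81.2%) against 0.295%, and CGCTGTT in 13 of 22 gamma genes (59.1%) against 0.824%. These 3 longer strings all contain CGCT and were chosen after the sequences had been read. PCDHA4, called in every vehicle and OA library, and PCDHA7, called in none, differed at 1 of the 28 bases, and PCDHA6 and the uncalled PCDHA8 differed at 2. PCDHB12 (no call) and PCDHB13 (called in 2 OA libraries) also differed at 2 bases, and PCDHGB4 and PCDHGB5 at 0. A match is a description of letters and was not tested as a binding site. PCDHA9, PCDHB6, PCDHB8, PCDHGA12 and PCDHGC5 had no CGCT on the gene strand in that window.

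No peak was called over the cluster in either IgG library. The H3K4me3 lists held 19953, 16381 and 16086 peaks in vehicle replicates 1 to 3, 17988, 17975 and 21033 in OA replicates 1 to 3, and 12924 and 11242 in the untreated libraries. A peak lay within 1 kb of the start of 59.7%, 58.1% and 53.4% of all protein-coding genes in vehicle, and of 59.9%, 61.3% and 64.3% in OA, so the OA lists reached more starts throughout the genome. OA replicate 3 had the most peaks, and vehicle replicate 3 the fewest of the 6. The lowest background that the peak caller used was 0.822, 0.775 and 0.45 reads in vehicle replicates 1 to 3 and 0.853, 0.633 and 0.722 reads in the OA replicates. This value follows depth only if no control library set it, which is not known here.

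The labelled cell type was checked by H3K4me3 at the starts of marker genes. Of 8 basal breast epithelial markers, KRT5, KRT17, ITGB4, CDH3 and EGFR had a peak in all 6 vehicle and OA libraries and LAMB3 in 5. KRT14, a basal keratin, had one in 2 vehicle and 0 OA libraries, and the canonical start of TP63, that of a long transcript, had none. KRT5 also had a peak in 1 IgG library. KRT18 was called in all 6 libraries and CDH1, EPCAM and KRT8 in 5 each. Of the 4 luminal markers FOXA1 and GATA3 were called in all 6, ESR1 in 1 and PGR in 0. None of the 4 blood and 3 endothelial markers was called. Of 6 neuronal markers, MAP2 was called in all 6 libraries, TUBB3 in 5, SYP in 2 and SNAP25 in 1, the last pair in OA libraries alone, while RBFOX3 and NEUROD1 had no call. Their relation to the protocadherin calls was not tested.

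H3K4me3 was called in every vehicle and OA library at 6 members, namely PCDHA4, PCDHA6, PCDHA12, PCDHAC1, PCDHAC2 and PCDHGC3. These are 6 of 53 members (11.3%), against 52.6% of all protein-coding genes. A further 12 members (22.6%, background 12.4%) were called in 1 to 5 libraries, and 35 (66.0%, background 35.0%) in none. All 5 alpha genes with a call had it in all 6 libraries, and the other 10 alpha genes had no call in any. No beta gene was called in every library.

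**Figure D1:**
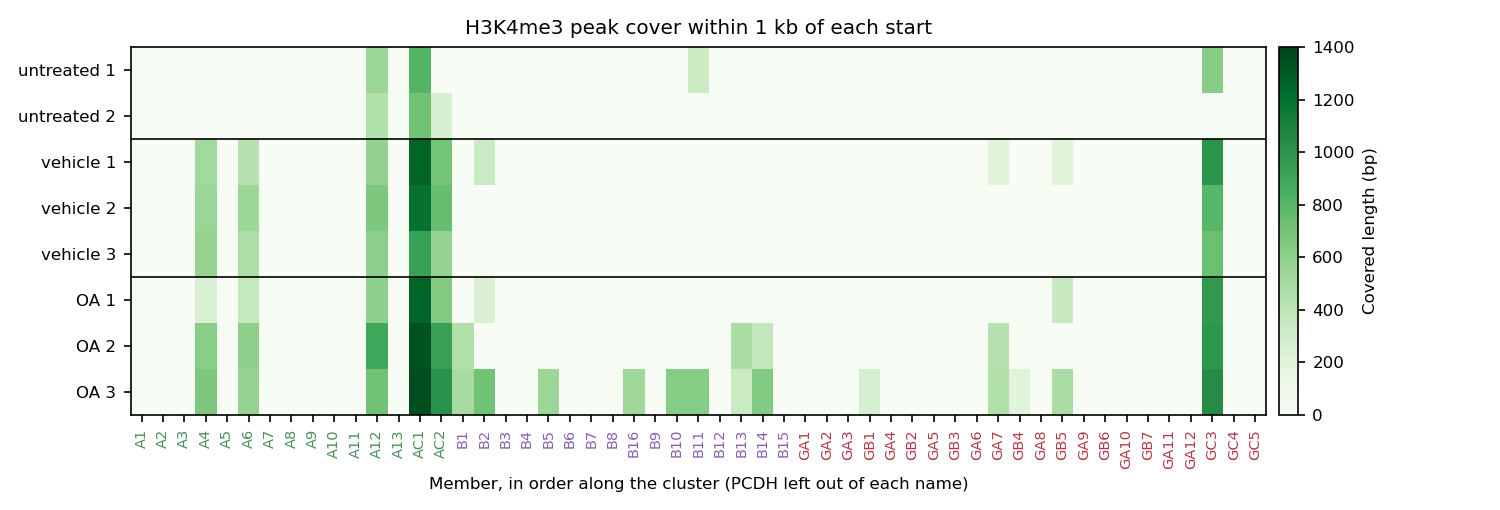
Covered length in bp of H3K4me3 peaks within 1 kb of the start of each of the 53 members (columns, in order along the cluster) in each untreated, vehicle and OA library (rows, with the replicate number). The columns of A4, A6, A12, AC1, AC2 and GC3 are filled in all 6 vehicle and OA libraries, and the beta genes are filled mainly in OA replicate 3.

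PCDHAC1 had the longest peaks. H3K4me3 covered 1258, 1187 and 927 bp within 1 kb of its start in vehicle and 1247, 1330 and 1355 bp in OA. The groups overlapped, and the difference between the means of 1124 ± 174 bp and 1311 ± 56.5 bp (SD, n = 3 each) did not pass the two-sided exact permutation test (p = 0.2, where 3 against 3 cannot go below 0.1). Covered length was tested in this way for 9 members, and the p-values are unadjusted. The pileup of reads at the strongest point, solved from the deposited fold and p-value, was 71, 102 and 37 reads in vehicle and 51, 126 and 153 in OA. Within each of these 6 libraries the peak stood between the 67.8th and the 96.5th percentile of all peaks by −log10 p. The gene begins at chr5:140926299 and was also called in both untreated libraries, over 809 and 716 bp.

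PCDHAC2, the other C-type alpha gene, was covered over 696, 740 and 571 bp in vehicle and 645, 935 and 1008 bp in OA. OA replicate 1 lay within the vehicle range and replicates 2 and 3 above it (669 ± 87.7 against 863 ± 192 bp, SD, n = 3, exact permutation p = 0.3). PCDHGC3, the first of the C-type gamma genes, was covered over 997, 798 and 723 bp in vehicle and 966, 980 and 1044 bp in OA, with overlapping groups (exact permutation p = 0.3). PCDHGC4 and PCDHGC5, which follow it, had no H3K4me3 call in any library.

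The 3 alternate alpha genes were covered over a shorter length than PCDHAC1 and PCDHGC3 in each of the 6 libraries, though in vehicle replicate 3 PCDHA12 and PCDHA4 were covered over slightly more than PCDHAC2. PCDHA12 was covered over 580, 661 and 601 bp in vehicle and 594, 895 and 716 bp in OA. PCDHA4 was covered over 515, 548 and 574 bp in vehicle and 250, 615 and 666 bp in OA, the lowest and the highest value both being from OA. PCDHA6 was covered over 425, 540 and 461 bp in vehicle and 352, 599 and 571 bp in OA. The groups overlapped for each of these 3 genes (two-sided exact permutation tests, p = 0.3, 1 and 0.8). Pileups at PCDHA6 were 10, 25 and 11 reads in vehicle and 13, 41 and 30 in OA, against 39, 67 and 24 and then 26, 97 and 84 reads at PCDHA12. Only PCDHA12 of these 3 was called in the untreated libraries, over 544 and 445 bp.

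Members called in every library did not share one base composition. PCDHAC1, PCDHAC2 and PCDHGC3 had 56.8%, 56.8% and 49.6% G and C in the 500 bp before the start, and PCDHA4, PCDHA6 and PCDHA12 had 38.0%, 31.8% and 32.6%. The 35 members with no call had a median of 35.2% (27.6% to 52.8%). The ratio of observed to expected CpG in the 500 bp after the start had a median of 0.785 in the members called in every library, 0.621 in those called in 1 to 5 and 0.687 in those with no call. PCDHGC4 and PCDHGC5, with 52.8% and 52.4% G and C before the start, had none of the calls of PCDHGC3.

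**Figure D2:**
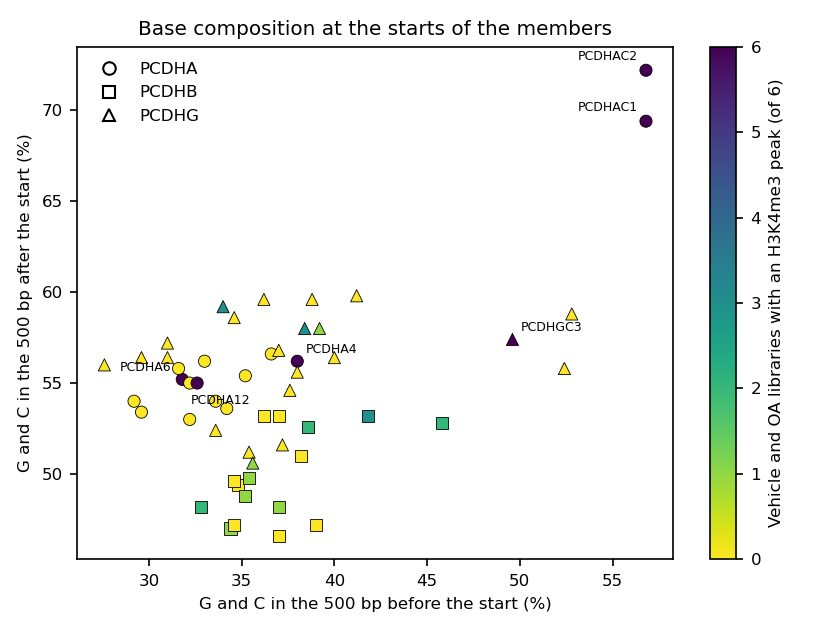
Share of G and C in the 500 bp before (x axis) and after (y axis) the start of each member, by cluster (symbol) and by the number of vehicle and OA libraries with an H3K4me3 peak (colour). PCDHAC1 and PCDHAC2 stand apart at 56.8% before the start, and the other members called in all 6 libraries lie among members with no call.

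Near-identical copies limit what can be said of single members. Of the 50-base stretches within 1 kb of the start, 38.7% recurred elsewhere in the cluster for PCDHB8 and PCDHB13, 29.1% for PCDHA9, 26.5% for PCDHA7, 24.4% for PCDHGB4 and PCDHGB5, and 16.6% for PCDHB9 and PCDHB10. How reads that map to several places were treated is not given in the sources used here, so a call or its lack at these starts is uncertain. The share was 12.3% at PCDHA6, 7.12% at PCDHA12, 3.84% at PCDHA4 and 0% at the C-type genes. Starts of noncoding genes lay within 1 kb of the H3K4me3 regions at PCDHA6 (ENSG00000279726), PCDHA12 (ENSG00000278915) and PCDHAC2 (ENSG00000279028), so a peak there cannot be assigned to the member alone.

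The 12 members called in 1 to 5 libraries were 8 beta genes, PCDHB1, PCDHB2, PCDHB5, PCDHB10, PCDHB11, PCDHB13, PCDHB14 and PCDHB16, and the gamma genes PCDHGB1, PCDHGA7, PCDHGB4 and PCDHGB5. Each of them had a peak in more OA than vehicle libraries, as did 2157 of the 2476 protein-coding genes called in 1 to 5 libraries, so this order was the usual one for such genes. Over all members and all protein-coding genes the shares were 22.6% and 10.8%, and 0 members were called in more vehicle than OA libraries (background 0.804%). Of the 12, 6 were called in OA replicate 3 alone: PCDHB5, PCDHB10, PCDHB11, PCDHB16, PCDHGB1 and PCDHGB4 (11.3% of the members, background 2.11%).

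PCDHB1, PCDHB13 and PCDHB14 were called in OA replicates 2 and 3 and in no vehicle library. Such members, with at least 2 OA and no vehicle calls, were 5.66% of the 53 against 2.25% of all protein-coding genes. PCDHB14 was covered over 367 and 645 bp in OA replicates 2 and 3, with pileups of 13 and 37 reads, and was not called in OA replicate 1 or in vehicle. PCDHB1, which stands apart from the rest of the beta genes at the upstream end of their cluster, was covered over 456 and 496 bp with pileups of 11 reads in each. PCDHB13 was covered over 478 and 330 bp. The start of PCDHB14 lies 29 bp from that of another annotated coding gene, ENSG00000279983, so its calls cannot be assigned to one of them. A start of a noncoding gene also lay within 1 kb of the regions at PCDHB16 (ENSG00000279068) and PCDHGB1 (ENSG00000280026). No member was called in all 3 OA and no vehicle library (background 0.824%), and none in at least 2 vehicle and no OA library (background 0.0399%).

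PCDHB2 and PCDHGB5 shared one pattern, with calls in vehicle replicate 1 and OA replicates 1 and 3. PCDHGB5 was covered over 197 bp in vehicle replicate 1 and over 344 and 486 bp in those OA libraries, and PCDHB2 over 338 bp and then 231 and 712 bp. PCDHGA7 was covered over 194 bp in vehicle replicate 1 and over 425 and 454 bp in OA replicates 2 and 3. In all 3 genes the highest value was from OA replicate 3 and another OA library had no peak, so the groups overlapped (two-sided exact permutation tests of covered bp, p = 0.7 for PCDHB2, 0.4 for PCDHGB5 and 0.4 for PCDHGA7).

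Whether a peak is called depends on its reads, so the pileups of members called in part of the libraries and throughout are given as a description. The 21 peaks at the 12 members, 12 of them from OA replicate 3, had a median pileup of 13 reads (7 to 37), while the 36 peaks at the 6 members called throughout had a median of 37.5 (10 to 153). The smallest pileup of any peak was 5 or 6 reads in these 6 libraries. By −log10 p, the 21 peaks stood at a median percentile of 21.7 (3.22 to 49.4) within their own libraries, and the 36 peaks at 55.6 (19.4 to 96.5).

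An H3K4me3 peak lay at 9, 6 and 6 members in the vehicle libraries and at 8, 10 and 18 in the OA libraries. OA replicate 1 lay within the vehicle range, and replicate 3 stood far above the other 5 libraries. The share of all protein-coding genes with a peak was higher in every OA than every vehicle library, with means of 61.8% in OA and 57.1% in vehicle (two-sided exact permutation p = 0.1, the smallest this design allows). The mean number of members was 7 ± 1.73 in vehicle and 12 ± 5.29 in OA (SD, n = 3), a difference of 5 that did not pass the two-sided exact permutation test (p = 0.2, smallest possible 0.1). Without OA replicate 3 the difference was 2 members (exact permutation p = 0.3). At a q-value of at most 1e-05 it was 4.67 members (exact permutation p = 0.4). With as many of the strongest peaks by −log10 p in each of the 6 libraries as the smallest list holds, 16086, it was 4.33 members (exact permutation p = 0.4). At 11242 peaks, the size of the smaller untreated list and a number chosen after seeing the data, the vehicle libraries called 4, 6 and 5 members and the OA libraries 5, 6 and 5, which differ by 0.333 in the mean. The size of the difference depended on how many of the weaker peaks were kept. The alpha cluster gave 5 called members in each of the 6 libraries. The beta cluster gave 1, 0 and 0 in vehicle and 1, 3 and 8 in OA (exact permutation p = 0.2), and the gamma cluster 3, 1 and 1 against 2, 2 and 5 (exact permutation p = 0.5).

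**Figure D3:**
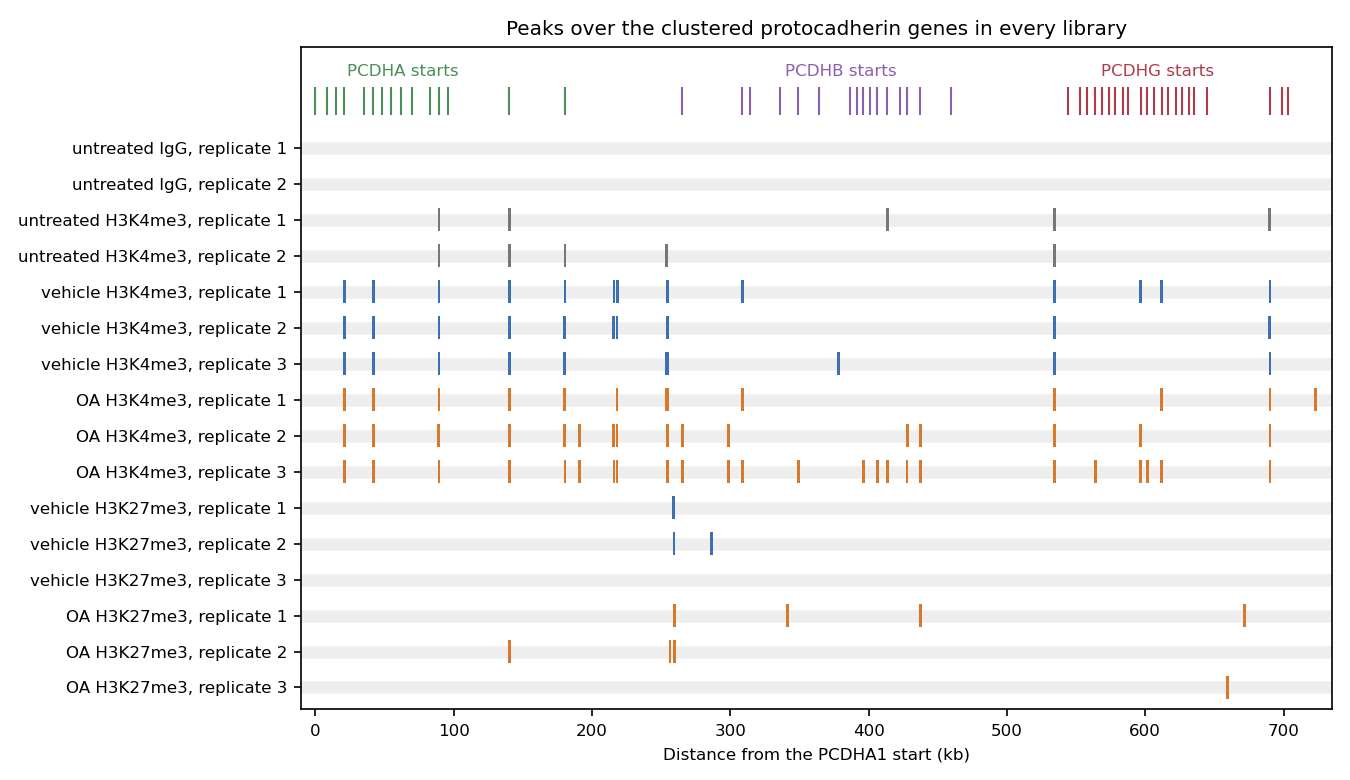
Peaks in each of the 16 libraries (rows) against distance in kb from the PCDHA1 start, with the starts of the members as ticks at the top; peaks narrower than 2 kb are drawn 2 kb wide so that they can be seen. The IgG rows are empty, the alpha starts show the same 5 H3K4me3 peaks in every vehicle and OA library, and OA replicate 3 has 24 H3K4me3 peaks against 10 to 16 in the other vehicle and OA libraries.

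H3K4me3 peaks covered 8.38, 7.38 and 5.18 kb of the 727 kb of the cluster in vehicle, and 7.45, 11.0 and 15.8 kb in OA. This was 1.15%, 1.02% and 0.713% of the cluster in vehicle and 1.03%, 1.51% and 2.17% in OA, above the covered share of the genome in each library (0.576%, 0.553% and 0.335% in vehicle and 0.462%, 0.583% and 0.686% in OA), although a smaller share of member starts than of all starts was called. These shares do not allow for how densely starts lie, with 53 member starts in the 727 kb and 20033 protein-coding genes in the genome. They therefore do not show that the cluster is rich in the mark for its number of starts. The groups overlapped, with OA replicate 1 between vehicle replicates 1 and 2. The means were 6.98 ± 1.64 and 11.4 ± 4.16 kb (SD, n = 3), a ratio of 1.63 and a difference of 4.41 kb that did not pass the two-sided exact permutation test (p = 0.2). Without OA replicate 3 the difference was 2237 bp (exact permutation p = 0.4). The whole lists covered 17.8, 17.1 and 10.3 Mb in vehicle and 14.3, 18.0 and 21.2 Mb in OA, and the same replicates were highest and lowest there as over the cluster.

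As a share of all that was covered in a library, the cluster took 0.0472%, 0.0433% and 0.0501% in vehicle and 0.0522%, 0.0611% and 0.0743% in OA. Here every OA library lay above every vehicle library, with means of 0.0469% ± 0.00346 and 0.0625% ± 0.0111 (SD, n = 3, two-sided exact permutation p = 0.1, the smallest this design allows). Windows of the same length along the genome did so in 8.68% of 3155 windows, and showed the reverse order in 7.35%, so that this order was also found in many other parts of the genome. The groups overlapped with the 2 kb either side of the starts of other genes left out (difference 0.0123%, exact permutation p = 0.2), at a q-value of at most 1e-05 (exact permutation p = 0.3) and with the 16086 strongest peaks of each library (difference 0.0111%, exact permutation p = 0.2). Within the cluster, the covered length was 4448, 4544 and 3134 bp in vehicle and 3335, 5554 and 5498 bp in OA over the alpha genes (exact permutation p = 0.5). Over the beta genes it was 338, 0 and 146 bp in vehicle and 231, 1255 and 4862 bp in OA (exact permutation p = 0.2), and OA replicate 3 alone exceeded the other 5 libraries together. Over the gamma genes it was 1388, 798 and 723 bp in vehicle and 1533, 1405 and 2441 bp in OA (exact permutation p = 0.1). The groups did not overlap, but only narrowly, at 1388 bp in vehicle replicate 1 and 1405 bp in OA replicate 2. The value of OA replicate 1 counts a 223 bp peak that lay 20295 bp from the nearest member start. These lengths were not set against library size, and how often other parts of the genome show this order in raw length was not counted.

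**Figure D4:**
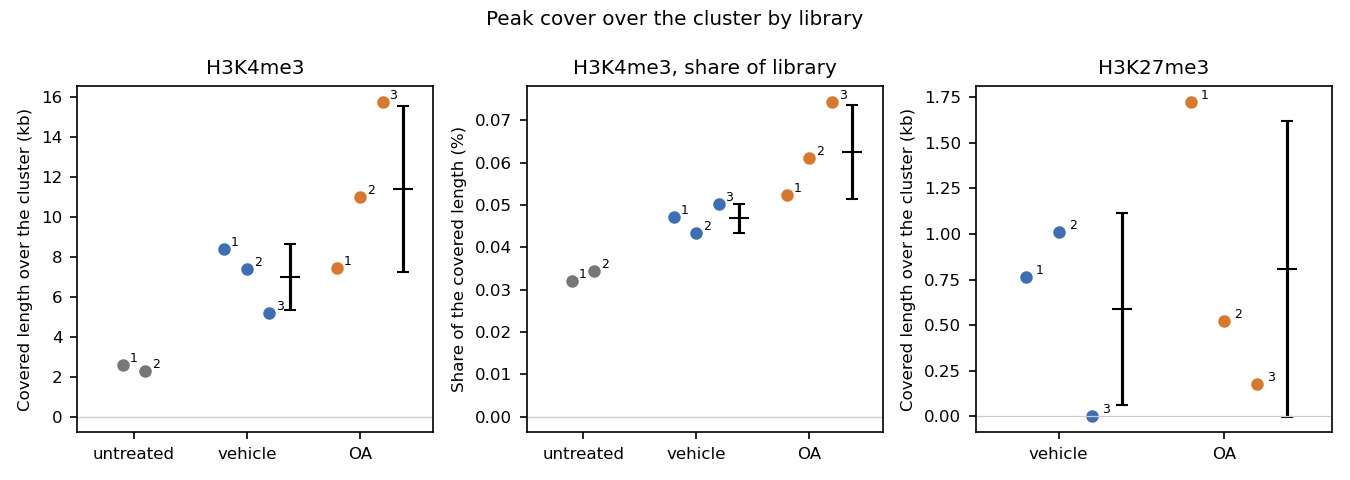
Length of H3K4me3 peaks over the cluster in kb (left), the same as a share of all H3K4me3 covered length in the library (middle), and length of H3K27me3 peaks over the cluster in kb (right). Points are libraries with their replicate number and bars are the mean ± SD of 3 libraries; the OA points lie above the vehicle points without overlap in the middle panel alone.

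The merged H3K4me3 regions, which join overlapping peaks and are kept where at least 2 libraries have one, numbered 12 within 1 kb of a member start and 18 over the cluster, of 18734 in the genome. Of the 12, 6 were called in all 6 libraries (background 59.1%) and 3 in at least 2 OA and no vehicle library (background 7.70%). None of the 12 was called in all 3 OA and no vehicle library (background 1.84%), and none in the reverse way (background 0.0801%).

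The other 6 regions lay away from member starts. One, at chr5:141039782-141041312, was called in all 6 libraries, 10062 bp before the start of PCDHB1 in the stretch between the alpha and beta genes, where it overlaps an exon of the noncoding gene ENSG00000288892. At its strongest peak the pileup was 22, 28 and 10 reads in vehicle and 17, 63 and 56 in OA. Another, at chr5:141320095-141321317, also called in all 6 libraries, holds the start of TAF7, a general transcription factor gene that sits between the beta and gamma genes and is not a protocadherin. In the introns shared by the alpha genes, downstream of PCDHAC2, a region at chr5:141003994-141004563 was called in vehicle replicates 1 and 2 and all 3 OA libraries, and one at chr5:141001712-141002294 in vehicle replicates 1 and 2 and OA replicates 2 and 3. The regions at chr5:140977022-140977433, in the same introns, and chr5:141084524-141085067, 9548 bp before PCDHB2, were called in OA replicates 2 and 3 alone.

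Peaks at member starts were centred after the start. Over the 57 member peaks of the vehicle and OA libraries, the summit (the strongest point of a peak) lay a median of 154 bp downstream of the start, from 165 bp upstream to 522 bp downstream, and 54 (94.7%) were downstream. Over all protein-coding genes with a peak, the median was similar, from 130 to 189 bp downstream in the 6 libraries, and the summit was downstream in 75.3% to 82.1%, depending on the library. The 3 upstream summits were at PCDHB1, in both OA libraries that called it, and at PCDHAC2 in OA replicate 1. PCDHAC1 had its summit either 149 to 168 bp or 519 to 522 bp downstream, in both groups. At PCDHA12 it lay 83 to 205 bp downstream in the vehicle libraries and OA replicate 2, and 435 and 447 bp downstream in OA replicates 3 and 1.

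**Figure D5:**
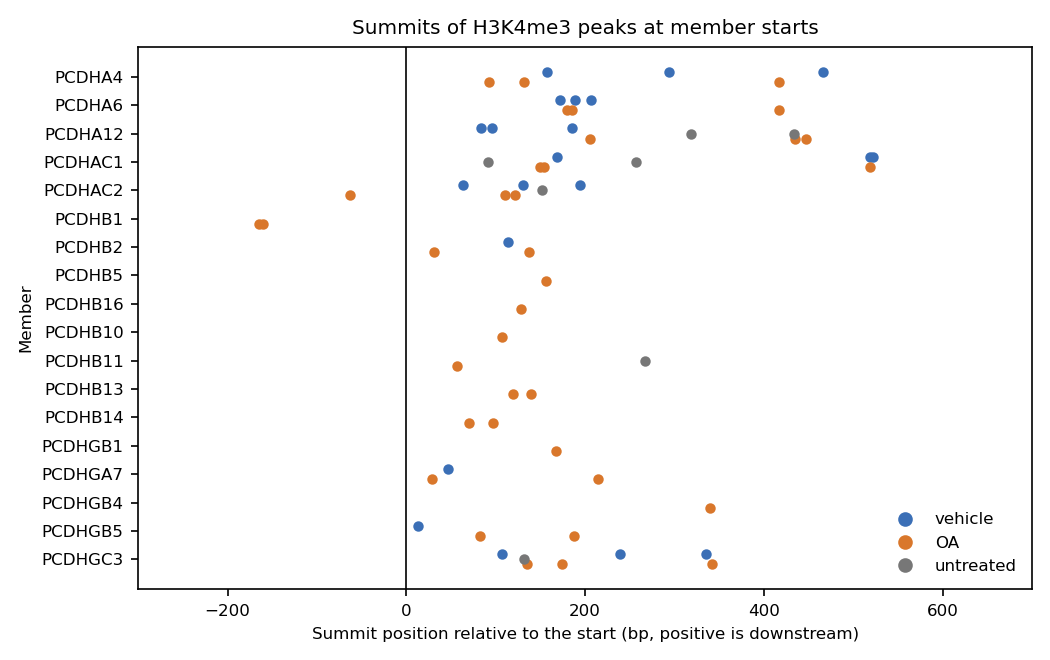
Position of the summit of each H3K4me3 peak relative to the start of its member (x axis, bp, positive is downstream) for vehicle, OA and untreated libraries. Of the 57 vehicle and OA summits 54 lie downstream of the start, and both PCDHB1 summits lie upstream, at -165 and -160 bp.

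Few H3K27me3 peaks lay over the cluster. A peak lay within 1 kb of the start of 0, 0 and 0 members in vehicle and of 1, 1 and 0 in OA (two-sided exact permutation p = 0.4), and 51 members (96.2%, background 88.5%) had none in any library. The share of all protein-coding genes with such a peak was also low, at 4.48%, 5.74% and 4.72% in vehicle and 6.11%, 3.85% and 1.38% in OA, so few calls among 53 members are close to the general rate. The calls were PCDHB14 in OA replicate 1, over 318 bp with a fold of 3.42 over the local background, and PCDHAC1 in OA replicate 2, over 191 bp with a fold of 3.49. Their −log10 q values were 1.23 and 1.25. The H3K27me3 lists held peaks with q-values up to 0.1, whereas the vehicle and OA H3K4me3 lists went no higher than 0.00998. A call of one mark therefore did not meet the same cutoff as a call of the other. Neither H3K27me3 call was found in a second library. Both starts also had H3K4me3 peaks, PCDHAC1 in every OA library and PCDHB14 in OA replicates 2 and 3. None of the 32643 merged H3K27me3 regions was within 1 kb of a member start.

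H3K27me3 peaks covered 763, 1009 and 0 bp of the cluster in vehicle and 1725, 525 and 179 bp in OA (591 ± 526 against 810 ± 811 bp, SD, n = 3, two-sided exact permutation p = 0.8). These lengths were 0.105%, 0.139% and 0% of the cluster in vehicle and 0.237%, 0.0722% and 0.0246% in OA, and in each library were below the covered share of the genome, at 0.305%, 0.814% and 0.431% for vehicle and 0.488%, 0.382% and 0.113% for OA. One merged region was kept, at chr5:141044934-141045860, with calls in vehicle replicates 1 and 2 and OA replicates 1 and 2. It lay 5514 bp before the PCDHB1 start, close to the H3K4me3 region between the alpha and beta genes, and its peaks were 763, 411, 351 and 168 bp long. The H3K27me3 lists differed widely in size, with 18801, 47648 and 28850 peaks in vehicle and 32363, 25540 and 9091 in OA, which limits what can be seen of a difference here.

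Genes known to control the clusters carried H3K4me3 in both groups. All 15 that were examined, among them the insulator protein CTCF, the cohesin subunits RAD21, SMC1A and SMC3, the cohesin loader NIPBL and the release factor WAPL, SMCHD1, SETDB1 and the DNA methyltransferases DNMT1, DNMT3A and DNMT3B, had a peak in all 6 vehicle and OA libraries (background 52.6%), and none had H3K27me3. Of the 10 non-clustered protocadherins, PCDH7 and PCDH9 were called in all 6 libraries, PCDH1 in 5, PCDH18 and PCDH19 in 4, and PCDH8, PCDH10, PCDH12, PCDH17 and PCDH20 in none. PCDH1 also had H3K27me3 in 3 vehicle and 1 OA libraries, and PCDH20 in 2 vehicle libraries. The 2 of 10 called for H3K4me3 in all 6 libraries compare with 52.6% of all protein-coding genes, and the 5 of 10 with no H3K27me3 call in any library compare with 88.5%.

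Among the classical cadherins and catenins, which form adherens junctions, 7 of 9 were called for H3K4me3 in every library (background 52.6%), including CDH2, CDH3, CTNNB1 and JUP. CDH1, the epithelial cadherin, was called in 2 vehicle and 3 OA libraries, and CDH11 in 1 and 2. CDH11 also had H3K27me3 in 3 vehicle and 1 OA libraries, and CDH1 in none. Of the 21 other protein-coding genes with a start inside the cluster or within 300 kb of it, 16 were called in all 6 libraries (background 52.6%), among them TAF7, HDAC3 and DIAPH1, and EIF4EBP3, ARAP3 and ENSG00000279983 in some. SLC25A2, a mitochondrial carrier gene that lies inside the cluster between the beta and gamma genes, and DND1 had no call.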

How the data were processed

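Peaks were called by the authors, 1 library at a time. The submitters' processing notes name MACS2 2.2.7.1, SICER, DiffBind 3.9, ChIPseeker 1.8.6 and hg38. The H3K4me3 and IgG lists are narrow peaks. The H3K27me3 lists have the MACS2 broad layout, although the study's methods name SICER2. The aligner, the treatment of duplicate reads and any control library are not given in the sources used here. The deposited lists give a fold (the ratio of a peak to local background), −log10 p and q values, and a score that was not used. In the narrow lists, the authors' caller also gave the offset of the summit. None is scaled between libraries, and read totals are unknown, so the folds of different libraries were not compared.

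Peaks on autosomes and X and Y were used. No peak ended beyond an hg38 chromosome. A gene was called where a peak overlapped, by at least 1 bp, the 1 kb either side of its Ensembl canonical start. Percentiles rank −log10 p within a library. Pileups were solved from the deposited fold, (pileup + 1)/(background + 1), and the Poisson p-value. The lowest background measures depth only if no control set it. Groups came from the labels. Differences in means were tested with two-sided exact permutation tests. The p-values measure the spread between 3 cultures of 1 line. Windows as long as the cluster were laid end to end along each chromosome and kept with cover in at least 2 of the 6 libraries.

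The members, listed by symbol, and the gene lists were chosen with earlier results of these data known. Named were all members with a kept region, with values for those called in the most libraries or in 1 group alone, and fixed lists. PCDHB2 and the members called in OA replicate 3 alone were named after their values were seen. Calculations were tested on simulated data. Python 3.11.15, numpy 2.4.6, scipy 1.17.1, pandas 2.3.3 and matplotlib 3.10.9 were used. Differential regions tabulated by the study were not used here.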

Additional observations from a re-analysis of the deposited data

Results flagged for a closer look

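The untreated H3K4me3 libraries, which enter no comparison, also had peaks at member starts, where the IgG libraries had none. Untreated replicate 1 had 4 members with a peak, PCDHA12, PCDHAC1, PCDHB11 and PCDHGC3, and untreated replicate 2 had 3, PCDHA12, PCDHAC1 and PCDHAC2. These are 7.55% and 5.66% of the members, against 49.2% and 45.2% of all protein-coding genes in the same libraries. PCDHB11 was covered over 319 bp there and was otherwise called in OA replicate 3 alone, over 630 bp. With the 11242 strongest peaks kept in each library, both untreated libraries had 3 members.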

How the results depend on the processing

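Of 144 recomputed values, 134 kept their direction or stayed within 1.5 times the count, 8 moved and 2 reversed. The threshold set for p lay below the smallest p these tests allow, so no value could change its side. The 134 include region counts that stayed at 0, with 12 each for vehicle-only H3K4me3, OA-only H3K27me3 and vehicle-only H3K27me3 regions. They also include differences that kept their sign but shrank, so the tally does not measure how stable the sizes were. No H3K4me3 difference changed sign. Leaving out each replicate in turn gave differences (OA minus vehicle) of 2237 to 6386 bp in H3K4me3 covered length, 2 to 7 members with an H3K4me3 peak, and 0.00979% to 0.0208% in the share of the library. Without the starts of other genes the covered length differed by 3667 bp, and without OA replicate 3 as well, chosen after seeing the data, by 1680 bp. With the 16086 strongest peaks of each library the differences were 3187 bp and 4.33 members, and at a q-value of at most 1e-05 they were 3951 bp and 4.67 members. The 11242 strongest peaks, also chosen after seeing the data, left a difference of 0.333 members, and a peak over at least 50% of the window one of 1 member (0.667 against 1.67). Counting regions with 2 or more OA and no vehicle calls gave 3 OA-only H3K4me3 regions at members in place of 0, and leaving out replicates in turn gave 0 to 3, with 3 only without OA replicate 1.

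For H3K27me3, leaving out each replicate in turn gave differences in covered length of -239 to 534 bp, reversed at -76.3 bp without vehicle replicate 3 and at -239 bp without OA replicate 1. With peaks within 5 kb joined, the difference rose from 219 to 1147 bp (591 against 1737 bp, exact permutation p = 0.3) and that in the share of the library from 0.00297% to 0.00750% (exact permutation p = 0.2). At a q-value of at most 1e-05 no H3K27me3 peak over the cluster was left in either group, so the differences of 0 in covered length, members and share of the library compare nothing. The difference in members was also 0 with an equal number of peaks per library and with a peak over at least 50% of the window. Regions called in at least 1 library gave 2 H3K27me3 regions at members. The cause was not tested.

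For H3K4me3, deviations of same-numbered vehicle and OA libraries correlated at -0.155, 0.258 and -0.286. Differently numbered libraries ranged from -0.371 to 0.331, so the numbers showed no pairing for this mark. For H3K27me3, same-numbered libraries correlated at 0.0466, 0.0707 and 0.081, each above the differently numbered ones (-0.0807 to 0.00964). All these H3K27me3 values were small, and whether the replicate numbers pair the samples was not tested. With a replicate block (exact sign-flip test, smallest p 0.25), the difference in H3K4me3 covered length of 4413 bp had p = 0.5, that of 5 members p = 0.5 and that of 0.0157% in the share of the library p = 0.25, and no call changed.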
